A study of Mus musculus with 374 samples.

Results

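Heat shock chaperones are proteins that help other proteins fold, and 10 genes of this class were followed here. They were chosen by name, with earlier results of these data known. Of these, 8 had a row among the 19829 mouse genes of the count table (Hsp90aa1, Hsp90ab1, Dnaja1, Hsph1, Hspa5, Hsp90b1, Hspd1 and Hspa9), whereas Hspa8 and Hspe1 are not analysed here. Together the 8 genes held 4438 UMIs (unique molecular identifiers, each standing for 1 captured transcript), of which Hsp90ab1 gave 2333. The cells came from 1 female C57BL/6 mouse aged 10-13 weeks and were sorted singly into the wells of 1 plate for CEL-seq2, a protocol that reads transcript 3′ ends. From the bone marrow came 44 B lymphocytes (B220+, low forward scatter), 96 granulocytes (Mac1+ Gr1+), 96 erythroblasts (Ter119+ CD44+, mid or high forward scatter) and 95 progenitor/stem cells (Lin- Kit+ Sca1+). The 43 T lymphocytes (CD3+, low forward scatter) came from the thymus. The labels name no treatment, and the dissociated tissue was stained on ice before the sort.

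Each population is 1 sample of 1 mouse. No p-value can therefore be given, and the 95% intervals below are exact and cover counting error only. Levels are in CPM, counts per 1000000 UMIs on mouse genes of the same population. The populations held between 135808 (B lymphocytes) and 834812 (progenitor/stem cells) mouse-gene UMIs, with medians of 3029 to 7959 per well, and ERCC spike-in RNA took from 5.06% to 11.8% of the UMIs. Each plate row held 1 population, so that row and population cannot be told apart. Every marker list fixed for a population was highest in that population, for all of its genes with a row (6 of 6 genes for the progenitor/stem cells, whose list stood at 3.83% to 6.51% of that level elsewhere). Among the B lymphocytes, well A8 had a Gr1 fluorescence of 15209 against a median of 26, with 519 granulocyte marker UMIs and 0 B lymphocyte marker UMIs. In wells B19 to B24, haemoglobin took 8.59% of the UMIs, against 1.90% in the other B lymphocyte wells. Values of the chaperones without these 7 wells are given where B lymphocytes lead.

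The chaperones fall into 3 compartments. In the cytosol, Hsp90aa1 and Hsp90ab1 encode the Hsp90 alpha and beta proteins, which mature kinases and steroid receptors. Dnaja1 is a J-protein that hands clients to Hsp70, and Hsph1 is an Hsp110 protein that releases nucleotide from Hsp70. In the endoplasmic reticulum (ER), Hspa5 encodes BiP, the Hsp70 of that compartment, and Hsp90b1 encodes GRP94, its Hsp90. In mitochondria, Hspd1 encodes the folding chamber Hsp60 and Hspa9 encodes mortalin, the Hsp70 that pulls in imported proteins. Cytosolic genes of the class are known targets of heat shock factor, and Hspa5 and Hsp90b1 are classical targets of the unfolded protein response.

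The ER pair carries a shared promoter sequence, which is shown because these genes parted in B lymphocytes and were both lower in granulocytes of higher Gr1 fluorescence. The ER stress element searched was CCAAT followed by CCACG with 9 bases of any kind between them, on both strands. It was found in the windows (250 bases before to 50 after a RefSeq start site, GRCm38.p6) of 37 of 27025 genes, or 0.137%. Windows were examined for 5 of the 8 chaperones (Hspa5, Hsp90b1, Hspd1, Hsph1 and Dnaja1). No window was found for Hsp90aa1 and Hsp90ab1, and Hspa9 was left out. None of these genes was searched for any motif given here. Hspa5 held 1 match, which began 65 bases before the start site. Hsp90b1 held 2, which began 212 and 107 bases before it, the latter on the opposite strand. The 250 bases before each start site are given 5′ to 3′ on the strand of the gene, Hspa5 at chr2:34771840-34772089 (plus strand) and Hsp90b1 at chr10:86705445-86705694 (minus strand), with the matches in capitals.
Hspa5: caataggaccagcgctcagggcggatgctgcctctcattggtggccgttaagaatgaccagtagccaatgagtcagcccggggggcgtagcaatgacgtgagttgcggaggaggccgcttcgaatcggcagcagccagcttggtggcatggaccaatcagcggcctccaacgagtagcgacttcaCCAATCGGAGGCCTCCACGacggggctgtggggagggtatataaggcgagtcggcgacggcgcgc
Hsp90b1: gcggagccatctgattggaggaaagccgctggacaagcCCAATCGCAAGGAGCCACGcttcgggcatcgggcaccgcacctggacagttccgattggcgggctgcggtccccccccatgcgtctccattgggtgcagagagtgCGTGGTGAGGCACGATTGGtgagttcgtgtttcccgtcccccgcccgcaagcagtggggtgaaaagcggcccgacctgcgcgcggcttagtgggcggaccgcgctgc
A heat shock element of 3 units (GAA, TTC and GAA, with 2 bases of any kind between neighbours, both strands) was in the windows of 0.662% of genes. Hspd1 had 2 overlapping matches, from 144 and 139 bases before the more downstream of its start sites, and 0 in the window of the upstream one. Hsph1 had 1 match, which began 36 bases after the most upstream of its start sites. Dnaja1 had none. These are matches of letters only.

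Hsp90ab1, the beta form of cytosolic Hsp90, was the member with the most UMIs and differed most clearly between populations. Its level was 2042 CPM (1947 to 2142) in progenitor/stem cells, 963 CPM in T lymphocytes, 700 CPM in B lymphocytes, 359 CPM in granulocytes and 292 CPM in erythroblasts. The 4 progenitor/stem cell rows lay at 1776, 2244, 2128 and 2009 CPM. The T lymphocyte rows were at 925 and 1009 CPM, the B lymphocyte rows at 651 and 752 CPM, the granulocyte rows between 276 and 424 CPM, and the erythroblast rows between 277 and 299 CPM. The rows of the 3 highest populations did not overlap with each other or with those below, and only granulocytes and erythroblasts were not apart beyond counting error (log2 ratio 0.30, -0.02 to 0.61). Progenitor/stem cells were 2.12-fold above T lymphocytes (log2 1.08, 0.87 to 1.31) and 6.98-fold above erythroblasts (log2 2.80, 2.59 to 3.03). At least 1 Hsp90ab1 UMI was seen in 95 of 95 progenitor/stem cell wells and in 57.3% of erythroblast wells. With wells of at least 2000 UMIs thinned to that depth, and the others left out, these shares were 96.8% and 27.4%.

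Hsp90aa1, the stress-responsive alpha form, had a different order. It was at 420 CPM (378 to 467) in progenitor/stem cells and 289 CPM (250 to 333) in erythroblasts, followed by 118 CPM in B lymphocytes, 110 CPM in T lymphocytes and 54.5 CPM in granulocytes. Rows of progenitor/stem cells lay between 376 and 480 CPM. Erythroblast rows spread from 142 to 384 CPM and overlapped with them. The order of the leading pair depended on the scaling: by CPM, progenitor/stem cells were 1.45-fold higher (log2 0.54, 0.28 to 0.80), but by scran size factors and by TMM factors erythroblasts were higher, with log2 ratios of erythroblasts over progenitor/stem cells of 0.60 and 0.32. Haemoglobin took 23.5% of the erythroblast UMIs. Under every scaling tried, Hsp90aa1 was lowest in granulocytes, where 15.6% of wells had a UMI, against 13.5% for the progenitor marker Kit. By this share alone, so near that of Kit, Hsp90aa1 in granulocytes is not told apart from background. Whether all Kit UMIs there are background was not tested. By level, the progenitor/stem cell marker list stood there at 4.50% of its own, and Hsp90aa1 at 54.5 against 420 CPM.

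**Figure D1:**
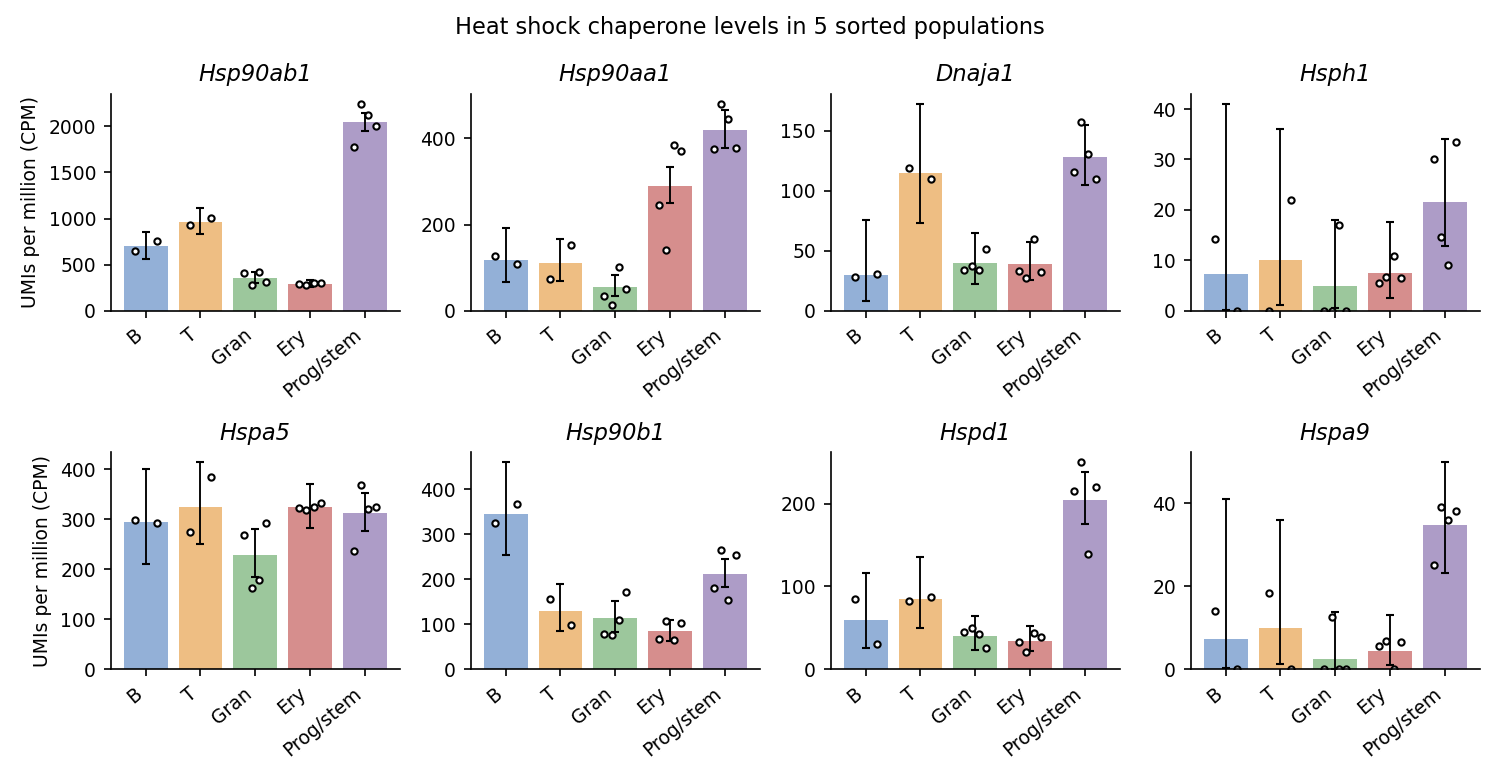
Level of the 8 measured chaperones in CPM (vertical axis, starting at 0 and scaled separately for each gene) in B lymphocytes, T lymphocytes, granulocytes (Gran), erythroblasts (Ery) and progenitor/stem cells (Prog/stem). Bars are population sums with 95% exact Poisson intervals and open circles are plate rows. Hsp90ab1 stands at 2042 CPM in progenitor/stem cells against 292 CPM in erythroblasts, whereas Hspa5 lies between 228 and 324 CPM in the 5 populations.

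The balance of the Hsp90 forms within a population sum does not depend on how libraries are scaled. Hsp90aa1 made up 193 of 388 UMIs of the pair in erythroblasts, or 49.7% (44.7 to 54.8%). In progenitor/stem cells the share was 17.1% (15.5 to 18.8%), in B lymphocytes 14.4%, in granulocytes 13.2% and in T lymphocytes 10.2%. The 4 erythroblast rows lay between 33.9% and 56.3%, above each of the other 12 rows. UMI counts of 3′ ends have no length term, but capture of different transcripts can differ, so the shares compare populations rather than proteins. A further 487 UMIs were counted on Gm12346 and Gm5844, whose sequences are 99.2% and 97.7% identical to the last 600 bases of Hsp90aa1, against 604 on Hsp90aa1 itself. How the counting split reads among such copies is not given, so the level of Hsp90aa1 is uncertain. With the copies added, the shares rose to 63.0% in erythroblasts, 27.4% in progenitor/stem cells and 16.1% to 24.6% in the others, and erythroblasts stayed highest.

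The difference lay also within the erythroblasts. The sorter recorded CD44, which is lost as erythroblasts mature, and wells were split at its median. Hsp90ab1 was at 403 CPM (163 UMIs) in the 48 wells above the median and 122 CPM (32 UMIs) in the 48 wells at or below it, a log2 ratio of 1.72 (1.17 to 2.32), and it was higher above the median in 4 of 4 rows. Without the well with the most UMIs the log2 ratio was 1.56. Hsp90aa1 was at 282 and 302 CPM (log2 -0.10, -0.53 to 0.33), Hspa5 at 338 and 302 CPM and Hsp90b1 at 69.2 and 107 CPM. The Hsp90aa1 share of the pair was thus 41.2% above and 71.2% at or below the median. A split by forward scatter, a measure of cell size, gave 42.1% and 65.4%. At the median Ter119 the shares were 58.5% (47.9 to 68.6%) above and 46.9% (41.1 to 52.8%) at or below it, and these intervals overlapped. In that split both forms were lower above the median, Hsp90aa1 at 197 against 356 CPM (log2 -0.85, -1.33 to -0.39) and Hsp90ab1 at 140 against 402 CPM (log2 -1.52, -2.07 to -1.01). Erythroblast markers, mainly haemoglobin, took 18.7% of the UMIs in the CD44-higher wells and 33.9% in the others, and median depth was 7756 against 5334 UMIs. Their part in the CPM difference was not tested, but the share within the pair does not involve the total. The share of all genes higher above the median CD44 is not given here, so the CPM difference of Hsp90ab1 is not set against all genes. In all, 11 splits by forward scatter or an antibody were examined, each for every measured member and for sums of members. Those reported were chosen after their values were seen.

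**Figure D2:**
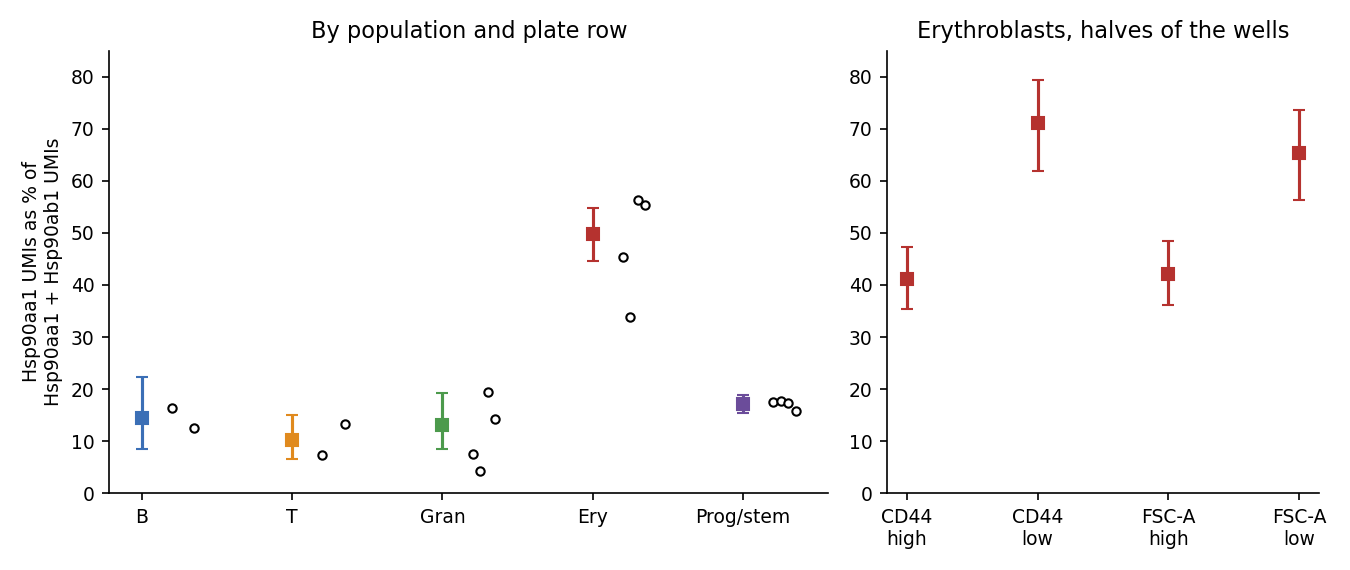
Hsp90aa1 UMIs as a percentage of Hsp90aa1 plus Hsp90ab1 UMIs. Left, by population (squares with 95% exact binomial intervals) and plate row (open circles), where erythroblasts stand at 49.7% and the other populations between 10.2% and 17.1%. Right, erythroblast wells above (high) and at or below (low) the median CD44 or forward scatter (FSC-A), at 41.2% against 71.2% for CD44.

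The other cytosolic members were low. Dnaja1 was at 128 CPM in progenitor/stem cells and 115 CPM in T lymphocytes, which were not apart beyond counting error (log2 0.16, -0.50 to 0.88), and then at 39.7 CPM in granulocytes, 39.0 CPM in erythroblasts and 29.5 CPM in B lymphocytes. The T lymphocyte rows, at 119 and 110 CPM, overlapped with the progenitor/stem cell rows (110 to 157 CPM), and the 10 rows of the other populations were all at or below 59.5 CPM. Under scran size factors T lymphocytes were highest. Dnaja1 held 176 UMIs, and its near-identical copies and Smu1, whose exons overlap those of Dnaja1 on the opposite strand, held 216, so that its level is uncertain. With these added, T lymphocytes were highest, at 274 CPM against 262 CPM in progenitor/stem cells. A UMI of Dnaja1 was found in 16.7% of granulocyte and 18.8% of erythroblast wells, near the shares of Kit (13.5% and 16.7%). Hsph1 had 18 UMIs in progenitor/stem cells and 1 to 5 in each of the others, too few to order.

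Hspa5 (BiP) was the flattest member. It was at 324 CPM in T lymphocytes, 324 CPM in erythroblasts, 313 CPM in progenitor/stem cells, 295 CPM in B lymphocytes and 228 CPM in granulocytes. No neighbours in this order were apart beyond counting error, and the ends of it were by a log2 ratio of 0.51 (0.03 to 0.98). Erythroblast rows were between 317 and 331 CPM. All populations lay within 2-fold of each other, which held for 6.6% of the 6317 genes with at least 50 UMIs. Under scran size factors and per ERCC UMI, the highest and lowest populations were 2.41-fold and 2.66-fold apart.

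Hsp90b1 (GRP94) was highest in B lymphocytes, at 346 CPM (254 to 460), followed by 212 CPM in progenitor/stem cells, 130 CPM in T lymphocytes, 114 CPM in granulocytes and 84.0 CPM in erythroblasts. The B lymphocyte rows were at 326 and 368 CPM and lay above the other 14 rows, which reached 265 CPM. B lymphocytes exceeded progenitor/stem cells by a log2 ratio of 0.71 (0.21 to 1.18). Without the 7 wells described above the B lymphocyte level was 400.3 CPM. Per ERCC UMI, progenitor/stem cells were higher, by a log2 ratio of 0.62. Markers of plasma cells (3 genes with a row), which secrete antibody, summed to 449 CPM in B lymphocytes against 3.00 to 21.6 CPM elsewhere, with 61 UMIs spread over 26 wells and at most 6 in a well. Their part in the Hsp90b1 level was not tested. An overlapping pseudogene on the opposite strand, 1810014B01Rik, held 40 UMIs, 1 of them in B lymphocytes and 32 in progenitor/stem cells. Hspa5 made up 46.0% of the UMIs of the ER pair in B lymphocytes, 59.6% in progenitor/stem cells, 66.7% in granulocytes, 71.4% in T lymphocytes and 79.4% (74.1 to 84.1%) in erythroblasts.

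Within granulocytes several members were lower in wells of higher recorded Gr1 fluorescence. Hsp90b1 had 46 UMIs in the 48 wells at or below the median Gr1 (192 CPM, 21 wells with a UMI) and 0 in the 48 wells above it. Taking 3 UMIs as the upper limit for a count of 0, it was at least 10.6-fold lower above the median. The exact interval of the log2 ratio, which also covers counting error in the 46, ended at -3.04, and at -2.86 without well I13, which held 9 of them. Hspa5 had 75 and 17 UMIs, or 314 and 103 CPM (log2 ratio of wells above over the others -1.60, -2.46 to -0.83). Both were lower above the median in 4 of 4 rows. Hsp90aa1 had 19 UMIs at or below the median and 3 above it (log2 -2.12, -4.52 to -0.36), and without well I13, which held 8 of them, the interval included no difference (log2 -1.48, -3.96 to 0.44). The cytosolic members summed to 531 and 353 CPM (log2 -0.59, -1.07 to -0.13), and the 6 members other than the ER pair were together lower above the median in 4 of 4 rows. Hsp90ab1 was at 397 CPM at or below and 304 CPM above it, and its interval included no difference (log2 -0.39, -0.91 to 0.12). A single well held 14 of the 92 Hspa5 UMIs, and without it the log2 ratio was -1.33. Granulocyte markers took 13.9% of the UMIs at or below the median and 17.0% above it, and macrophage markers (5 genes) summed to 305 CPM and 109 CPM. Median depth was 4712 and 3094 UMIs, and ERCC took 7.92% and 11.4%. The part of these differences in the result was not tested. The share of all genes lower above the median is not given here, so the lower levels cannot be called particular to the chaperones.

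**Figure D3:**
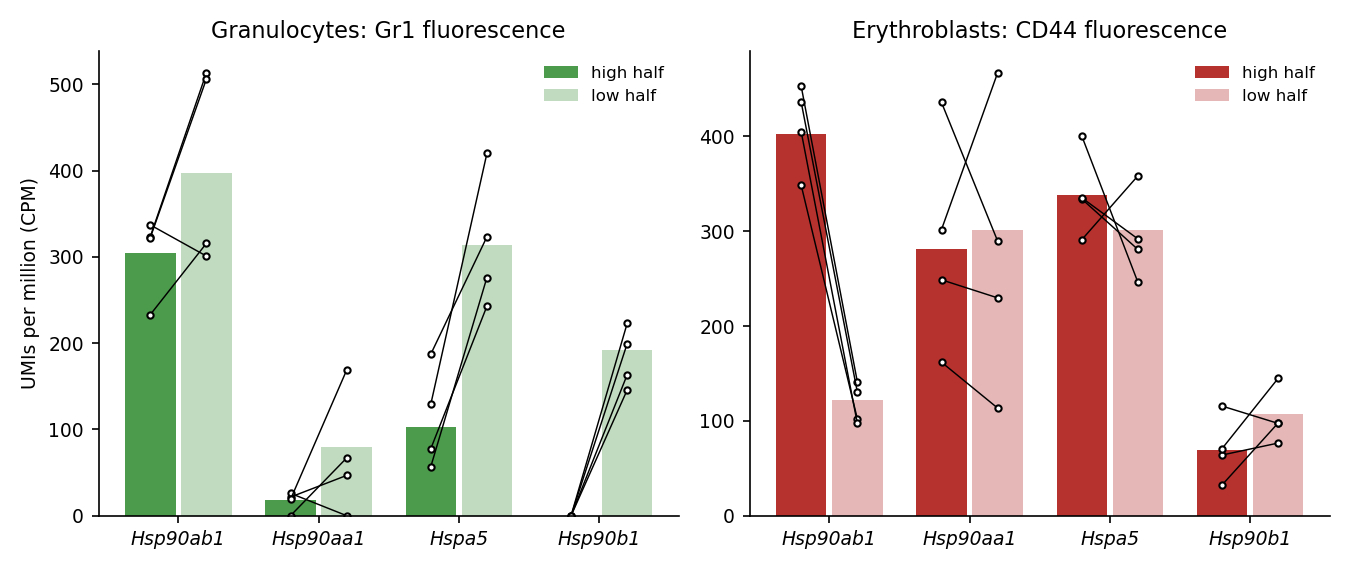
Levels in CPM of 4 chaperones in granulocytes split at the median Gr1 fluorescence (left) and erythroblasts split at the median CD44 fluorescence (right). Dark bars are the 48 wells above the median, pale bars the 48 at or below it, and joined circles are the 4 plate rows. Hsp90b1 is at 0 in granulocytes above the median Gr1 and at 192 CPM in the others, and Hsp90ab1 is at 403 against 122 CPM in the erythroblasts.

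The mitochondrial members were highest in progenitor/stem cells. Hspd1 (Hsp60) was at 205 CPM (175 to 238) there, 84.8 CPM in T lymphocytes, 58.9 CPM in B lymphocytes, 39.7 CPM in granulocytes and 34.5 CPM in erythroblasts. Its 4 progenitor/stem cell rows lay between 139 and 250 CPM and the other 12 rows between 20.3 and 87.8 CPM, without overlap. Progenitor/stem cells exceeded T lymphocytes 2.41-fold (log2 1.27, 0.55 to 2.08), and the 4 lower populations were not apart from their neighbours beyond counting error. The 5′ exons of Hspd1 overlap Hspe1 on the opposite strand, and its copy Hspd1-ps3 held 88 UMIs, 70 of them in progenitor/stem cells. A UMI of Hspd1 was found in 13.5% of granulocyte and 16.7% of erythroblast wells. Kit, which marks the progenitors, was found in the same shares of these wells. Whether all Kit UMIs in these wells are background was not tested. By this share alone, Hspd1 is not told apart from background over all wells of these populations. By level, the progenitor/stem cell marker list stood there at 4.50% and 3.83% of its own, and Hspd1 at 39.7 and 34.5 against 205 CPM. The erythroblast UMIs of Hspd1 were uneven, with 21 in the 48 wells at or below the median Ter119 and 2 in the 48 above it (log2 -2.92, -6.05 to -0.88). Hspa9 had 29 UMIs in progenitor/stem cells (34.7 CPM, 23.3 to 49.9) and 1 to 3 in each other population, at or under the limit of 3 UMIs. Its interval over T lymphocytes, the next population, included no difference (log2 1.80, -0.18 to 4.91). A named pseudogene of Hspa9 held 37 UMIs, against 36 on Hspa9 itself. It was not among the near-identical copies found by alignment, and its UMIs by population are not given here.

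Summed over the 8 genes, chaperones took 3377 CPM in progenitor/stem cells, 1747 CPM in T lymphocytes, 1561 CPM in B lymphocytes, 1075 CPM in erythroblasts and 843 CPM in granulocytes. Progenitor/stem cells exceeded the other populations by log2 ratios of 0.95 (0.79 to 1.12, T lymphocytes), 1.11 (B lymphocytes), 1.65 (erythroblasts) and 2.00 (1.84 to 2.17, granulocytes). Hsp90ab1 carried much of this. Without it the sums were 1334, 783, 862, 783 and 483 CPM in the same order. The cytosolic members made up 77.4% of the sum in progenitor/stem cells, 68.6% in T lymphocytes and 54.4% to 58.4% in the others, and the ER members 15.5%, 26.0% and 37.9% to 41.0%. The ER members summed to 525 CPM in progenitor/stem cells and 641 CPM in B lymphocytes, which over all wells were not apart beyond counting error. Without the 7 B lymphocyte wells described above, Hspa5 was at 302 CPM and Hsp90b1 at 400 CPM in B lymphocytes. The interval for the sum without these wells is not given here.

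Of the 6 members with at least 50 UMIs, 4 were highest in progenitor/stem cells (Hsp90ab1, Hsp90aa1, Hspd1 and, without its copies and Smu1, Dnaja1), against 31.9% of all 6317 such genes. A level at least 2-fold higher in progenitor/stem cells was found for 4 of 6 members over B lymphocytes (all genes 21.5%), 3 of 6 over T lymphocytes (18.2%), 4 of 6 over granulocytes (44%) and 4 of 6 over erythroblasts (45.9%). None was 2-fold lower (all genes 10.9%, 10.7%, 12.3% and 12.2%). The median log2 ratio of the 6 members was 1.67, 0.90, 2.03 and 1.53 in that order, and that of all genes 0.29, 0.19, 0.80 and 0.86. The 4 comparisons share the progenitor/stem cells, and the members were chosen with earlier results of these data known. Between other populations fewer members passed 2-fold. T lymphocytes were 2-fold above B lymphocytes for Dnaja1 (1 of 6, all genes 15.7%) and 2-fold below them for Hsp90b1 (1 of 6, 10.5%), and erythroblasts were 2-fold above granulocytes for Hsp90aa1 (1 of 6, 29.8%) and below them for 0 of 6 (30.2%). Over granulocytes and erythroblasts the share of all genes past 2-fold was itself large, so that the count of members there is less far from the background than over the lymphocytes. With scran size factors only 2 of the 6 members were highest in progenitor/stem cells, against 16.2% of all genes.

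**Figure D4:**
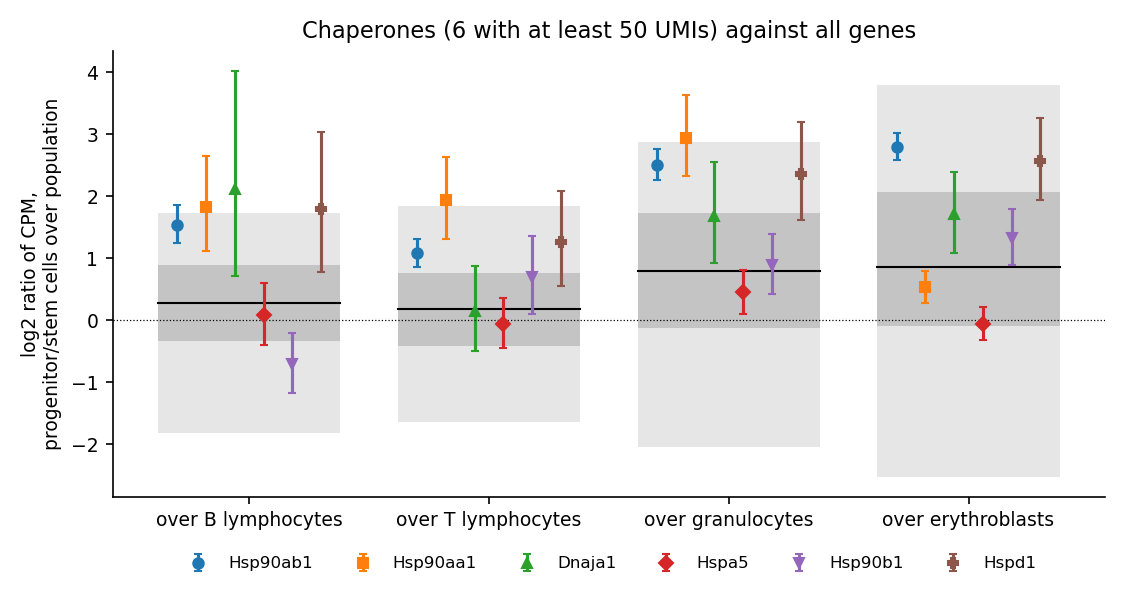
Log2 ratio of CPM in progenitor/stem cells over each other population for the 6 chaperones with at least 50 UMIs (symbols with 95% exact intervals). Grey boxes span the 5th to 95th (light) and 25th to 75th (dark) percentiles of 6317 genes, with their median as a black line. Hsp90ab1 lies at 1.55, 1.08, 2.51 and 2.80 from left to right and Hspa5 between -0.05 and 0.46, and Hsp90b1 is below 0 only over B lymphocytes.

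Single wells varied widely. The summed level had a median of 3266 CPM in progenitor/stem cells, where the lowest well was at 878 and the highest at 5909 CPM, and of 656 CPM in granulocytes, with wells from 0 to 4914 CPM. The lower quartile of progenitor/stem cell wells (2372 CPM) was above the upper quartile of T lymphocyte wells (2353 CPM). Within populations, the Pearson correlation of the summed level with forward scatter was between 0.01 and 0.18 and with recorded sort time between -0.12 and 0.13, over 43 to 96 wells that share a plate. The correlation of the summed level with well depth was up to 0.54, in erythroblasts.

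**Figure D5:**
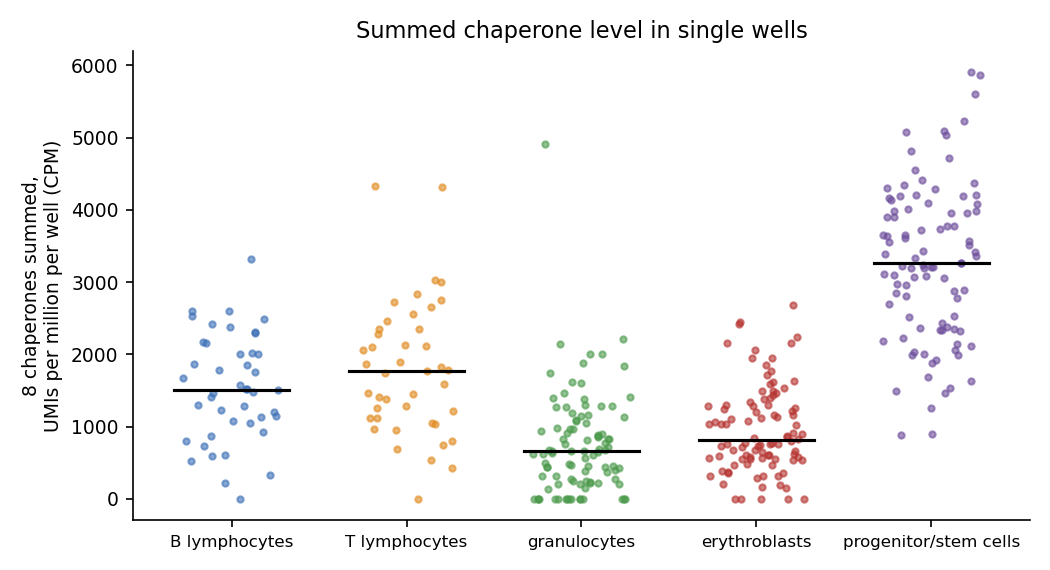
Summed level of the 8 chaperones in each of 374 wells, in CPM, by population (points spread sideways for display, black lines mark medians). Wells of the progenitor/stem cells have a median of 3266 CPM and none at 0, and granulocytes have a median of 656 CPM.

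Other folding genes were counted in lists written with earlier results known, beside the share of all 6317 genes highest in the same population. For progenitor/stem cells this share was 31.9% by CPM, 16.2% by scran and 18.1% by TMM, and for erythroblasts 18.7%, 35.1% and 35.2%. Of 9 Hsp90 co-chaperones with at least 50 UMIs, 6 were highest in progenitor/stem cells by CPM, but 2 by scran size factors, near the share of all genes, and 4 by TMM factors. Among them Cdc37, which brings kinases to Hsp90, was at 170 CPM there against 66.0 to 155 CPM elsewhere (T lymphocytes were highest by scran and by the mean over wells), and Ptges3 (p23) at 189 against 51.5 to 121 CPM (erythroblasts were highest by scran and TMM). Of 12 subunits of the chaperonin CCT and of prefoldin, which fold actin and tubulin, 10 were highest in progenitor/stem cells (6 by scran and 5 by TMM). Cct2 was at 344 CPM against 49.6 to 254 CPM, and Cct4 at 345 against 86.7 to 190 CPM, and both were highest there under each of the 6 scalings. In the ER, Calr (calreticulin) was at 538 CPM and Canx (calnexin) at 388 CPM in progenitor/stem cells, and 6 of 10 ER folding genes were highest there, but 1 by scran, which put both Calr and Canx highest in erythroblasts, as TMM did Canx. Of 13 J-proteins, 7 were highest in erythroblasts by CPM and 3 in progenitor/stem cells, with 7 and 2 by scran and 8 and 3 by TMM. Dnajb1, a heat-inducible partner of Hsp70, was at 193 CPM in erythroblasts and 42.1 to 57.5 CPM elsewhere, Dnajc8 at 268 against 149 to 206 CPM and Dnajc9 at 214 against 32.2 to 123 CPM. These 3 were highest in erythroblasts under each of the 6 scalings. Hspa4, an Hsp110 relative of Hsph1, was at 248 CPM in progenitor/stem cells and 87.0 to 184 CPM elsewhere, whereas Hspa4l was highest in erythroblasts (141 CPM). Among 5 nucleotide exchange genes, Bag1 was highest in erythroblasts (198 CPM) and Bag6 in T lymphocytes (125 CPM, changing with the scaling).

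Among the other heat-inducible genes looked up beside Dnajb1, Hspa1b had 1 UMI in the 374 wells and Hspb1 had 1, and Hspa1a is not analysed here. Of 5 stress regulators, Atf4 was at 337 CPM in erythroblasts against 125 to 161 CPM elsewhere, and Hsbp1, which binds heat shock factor, lay between 30.0 and 94.8 CPM. Of 6 mitochondrial quality control genes, Yme1l1 lay between 105 and 126 CPM and Afg3l2 was highest in erythroblasts (120 CPM). Of 7 immediate early genes, which respond to handling and signalling, 0 were highest in progenitor/stem cells. Btg2 was at 39.5 CPM there against 180 to 493 CPM elsewhere, and Jund at 37.1 against 81.0 to 434 CPM.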

How the data were processed

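UMI counts per gene and well, as whole numbers not normalized, were deposited by the authors. As the methods of the study describe *scPipe*, reads were aligned (*Rsubread* by default), assigned to exons, demultiplexed by designed barcodes and collapsed to UMIs. Neither the aligner version nor the genome build, annotation or strand setting is given in the sources used here. Each column was assigned by its well name, which left 9 columns without a sample, and these were not used. Symbols and exon overlaps come from GENCODE M21 (GRCm38), and promoter windows from RefSeq.

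Counts were summed per population over 374 wells and scaled to CPM on mouse genes. Intervals are exact Poisson (sums), binomial (shares) or conditional binomial (ratios) at 95%, and 2-fold calls use genes with at least 50 UMIs. Each population is 1 sample, so no test was made. The intervals were tried on simulated Poisson sums only, where their coverage follows from the method. Uneven wells were not simulated, so this does not show how the intervals hold for them. Alternatives used scran 1.30.0 size factors, edgeR 4.0.16 TMM factors, ERCC UMIs, other totals and fewer wells. Copies were found by alignment of the last 600 bases of each transcript (at least 95% identity over 100 bases).

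The members and lists were chosen with earlier results of these data known. The genes named are the members, the 2 genes with the most UMIs of each wider list, Hspa1a, Hspa1b, Dnajb1 and Hspb1, and the 3 genes most like each compartment sum. Others were named after their values were seen, as were the splits by fluorescence. Pair shares with Hspa8 or Hspe1 were not computed. Python 3.11.15 with numpy 2.4.6, pandas 2.3.3 and scipy 1.17.1 and R 4.3.3 were used.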

Additional observations from a re-analysis of the deposited data

How the results depend on the processing

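The log2 ratio of the summed members in progenitor/stem cells over each other population kept its sign under each alternative, but its size depended on the scaling. Over B lymphocytes, T lymphocytes, granulocytes and erythroblasts it was 1.11, 0.95, 2.00 and 1.65 by CPM. Scran size factors gave 0.85, 0.71, 1.31 and 0.61, TMM factors 1.23 over granulocytes and 0.79 over erythroblasts, and UMIs per ERCC UMI 2.44, 1.84 and 2.96 over the first 3. Totals without Gm42418, mitochondrial transcripts, haemoglobin, S100a8 and S100a9 gave 0.89 over B lymphocytes, 1.78 over granulocytes and 1.28 over erythroblasts. Without Hsp90ab1 in the sum, an alternative added after the data were seen, the ratios were 0.63, 0.77, 1.47 and 0.77. Scran moved the median log2 ratio of all genes by -0.29, -0.15, -0.76 and -0.98, and TMM by -0.11, -0.02, -0.77 and -0.86. Scaling per ERCC UMI moved it by 1.32, 0.89, 0.96 and 0.11. The totals without the abundant transcripts named above moved it by -0.23, -0.07, -0.22 and -0.37. Leaving out each plate row in turn gave 1.05 to 1.17, 0.86 to 1.04, 1.91 to 2.06 and 1.59 to 1.71.

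Members highest in progenitor/stem cells numbered 4 of 6 by CPM, 2 by scran, 3 by TMM and 5 by the mean over wells. They numbered 6 per ERCC UMI (where 60.9% of all genes were highest there) and 4 to 5 without a plate row. Of all genes, 31.9% were highest there by CPM, 16.2% by scran, 18.1% by TMM and 31.7% by the mean over wells. Members past 2-fold over T lymphocytes numbered 3 by CPM, 1 by scran and 5 per ERCC UMI, and over erythroblasts 4 by CPM, 2 by scran and 2 by TMM. Without a plate row the counts were 4 over B lymphocytes, 3 to 4 over T lymphocytes, 4 to 5 over granulocytes and 4 over erythroblasts. The share of all genes past 2-fold is given here for CPM over all wells only. The counts of members past 2-fold at other settings are thus not set against all genes. The Hsp90aa1 share in erythroblasts was 54.9% by scran and 46.6% to 52.8% without a row. With near-identical copies added, also chosen later, the shares were 63.0% in erythroblasts, 27.4% in progenitor/stem cells, 24.6% in B lymphocytes, 16.1% in T lymphocytes and 24.1% in granulocytes. Without a row the shares outside erythroblasts ranged from 16.9% to 17.5%, 12.5% to 16.4%, 7.34% to 13.2% and 9.52% to 15.0% in this order. Of 21 log2 ratios of single members whose interval by CPM did not include 0, 3 changed sign, at 5 settings. These were Hsp90b1 over B lymphocytes per ERCC UMI (0.62), Hspa5 over granulocytes by scran (-0.12) and TMM (-0.32), and Hsp90aa1 over erythroblasts by scran (-0.60) and TMM (-0.32). The other 4 ratios, whose intervals included 0, each changed sign at some setting: Hspa5 over B lymphocytes (-0.14 to 1.41), T lymphocytes (-0.30 to 0.84) and erythroblasts (-1.27 to 0.06), and Dnaja1 over T lymphocytes (-0.06 to 1.05). The cause was not tested beyond the shift of all genes.

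All genes were highest in progenitor/stem cells in 34.0% of cases with a minimum of 10 UMIs and in 34.3% with no minimum. Wells with a UMI of any member fell by thinning from 83.3% to 66.3% in granulocytes and from 94.8% to 83.2% in erythroblasts. The thinned shares leave out wells under 2000 UMIs, which were 10 of 96 granulocyte and 1 of 96 erythroblast wells. No paired analysis was possible because each population is 1 sample of 1 mouse and well numbers only name cells. Depth limits Hspa9 and Hsph1, with 36 and 28 UMIs in all.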

Other observations

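Several genes outside the chaperone list were highest in erythroblasts, and were picked out after their values were seen. Dnajb2, a J-protein known for guiding clients to the proteasome, had 92 UMIs in erythroblasts (138 CPM) and 18 in the other populations, at 0 to 20.0 CPM. Dnaja4, a cytosolic relative of Dnaja1, had 42 UMIs in erythroblasts (63.0 CPM) and 0 to 2 in each other population. The small heat shock protein gene Hspb6 had 35 UMIs in erythroblasts (52.5 CPM, 36.6 to 73.0) and 2 to 4 in each other population, which is 20.0 CPM (5.44 to 51.1) in T lymphocytes, 14.7 CPM (1.78 to 53.2) in B lymphocytes and 3.59 to 7.43 CPM in the others. Wells with at least 2000 UMIs were also thinned to that depth, and the others were left out. Of the wells kept, 10.5% of erythroblast wells and 6.06% of B lymphocyte wells (2 of 33) had a UMI of it. Over all 44 B lymphocyte wells, unthinned, the share was 4.55% (2 wells). Each was highest in erythroblasts under the 6 scalings compared. Herpud1, an ER stress gene, was at 302 CPM in B lymphocytes and 21.0 to 51.5 CPM elsewhere, so that its leading population was that of Hsp90b1 and not that of Hspa5. Fkbp4, a steroid receptor co-chaperone of Hsp90, was at 199 CPM in progenitor/stem cells and 39.7 to 64.9 CPM elsewhere.

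Over the 16 plate rows, the genes whose log2(CPM + 10) most resembled that of the cytosolic sum were Mtf2 (r = 0.96), Rps9 (0.95) and Trim28 (0.95) among 1908 genes with at least 200 UMIs. For the ER sum they were Cpsf6 (0.87), Dhx9 (0.86) and Erp29 (0.85), and for the mitochondrial sum Nrgn (0.96), Trim28 (0.92) and Gm19590 (0.92). Rows of a population share their cells' type, so that these values mainly compare 5 populations.

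Within the T lymphocytes, Hsp90aa1 had 17 UMIs in the wells above the median forward scatter and 5 in the others. These were 163 and 51.9 CPM (log2 1.65, 0.16 to 3.45). Its near-identical copies, with 15 UMIs in T lymphocytes, were not counted in this split. Within the progenitor/stem cells, Hspa5 was at 248 CPM above the median Kit fluorescence and 376 CPM at or below it (log2 -0.60, -0.97 to -0.23). Both were among the 11 splits examined, each for every measured member and for sums of members, and were picked after their values were seen.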
